A study of Mus musculus with 6 samples.

Results

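Cadherins and catenins were measured in mouse testis cells sorted for Thy1. They comprise the 6 cadherin genes Cdh1, Cdh2, Cdh3, Cdh5, Cdh11 and Cdh13 and the 3 catenin genes Ctnna1, Ctnnb1 and Ctnnd1. They were taken as every probe set that the platform annotation gives to one of these symbols and to no other gene, which made 23 of the 45037 probe sets tested and 9 of 18193 genes. The cells came from prepubertal mouse testes and were parted by magnetic sorting for Thy1, a surface glycoprotein, into a Thy1-positive fraction, which per the labels is enriched for spermatogonial stem cells, and a Thy1-negative fraction, which is depleted of them. Each fraction has 3 arrays from separate donor preparations, called P1, P2 and P3 (Thy1-positive) and N1, N2 and N3 (Thy1-negative). Strain, age in days and the number of animals pooled per preparation are not given in the sources used here, and neither fraction is a single cell type. The question is which cadherins and catenins differ between the fraction rich in stem cells and the rest of the testis cells.

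Classical cadherins are single-pass membrane proteins that bind cadherins of the neighbouring cell in a calcium-dependent way, mostly of their own kind. Inside the cell their tails hold beta-catenin, which binds alpha-catenin and through it the actin cytoskeleton. They also hold p120-catenin, called delta-catenin here, which keeps the cadherin at the membrane. Beta-catenin is also the transcriptional effector of canonical Wnt signalling. In the testis, E-cadherin (Cdh1) is known from undifferentiated spermatogonia, N-cadherin (Cdh2) from Sertoli cells and germ cells at their contacts, and VE-cadherin (Cdh5) from endothelium.

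Levels are given as log2(intensity + 1). A difference is the Thy1-positive mean less the Thy1-negative mean on that scale, with 3 arrays in each fraction (n = 3). Adjusted p is from limma over all probe sets unless the gene level is named, with 0.05 as the threshold. Genes other than the members, markers included, were called at gene level. Arrays have no read depth, and their small number limits the precision. Thy1 itself measured 6.05, 6.52 and 6.05 on P1, P2 and P3 against 2.35, 2.35 and 2.74 on N1, N2 and N3, so the sorted marker followed the labels. P2 and N2 stood apart within their fractions: on the first principal component of all probe sets, with 84.2% of the variance, P1, P2 and P3 lay at -106.9, -81.8 and -103.3 and N1, N2 and N3 at 119.5, 62.0 and 110.5. Within their fractions P2 and N2 lay nearest the other fraction. An order of arrays with P2 or N2 so placed, as named below for genes and marker lists, is thus also that of the whole table. The median probe set lay between 4.07 and 4.21 and the 25th percentile between 2.67 and 2.68 on every array.

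Of the 23 probe sets, 8 passed the threshold: 1 was higher in Thy1-positive cells, that of Cdh1, and 7 were lower, both of Cdh2, both of Cdh11 and all 3 of Ctnnd1. Over all probe sets 23.4% passed, 11.8% higher and 11.5% lower. The 23 had a median difference of -0.12, against 0.00 over all probe sets. For 16 of the 23 the fractions had no overlapping values, against 43.6% of all probe sets. With 1 probe set per gene, the brightest, 2 of 9 genes were higher and 4 lower, against 33.0% of all genes in either direction, 18.5% higher and 14.4% lower. At that level 7 of the 9 genes had fractions that did not overlap, against 51.4% of all genes. Cdh13 and Ctnnb1 passed at gene level alone, with differences of 0.36 and -0.29. Of called probe sets of the whole table, 50.6% were higher, or 81.4% with arrays centred on their median, a scaling that shifted the median difference of all genes by more than 0.1, to 0.13 against 0.01 without it. With that scaling 5 of the 23 were higher and 7 lower, the added ones being probe sets of Cdh13 and Ctnna1 that lie below the array median. It called 31775 of all 45037 probe sets, against 10533 without it.

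**Figure D1:**
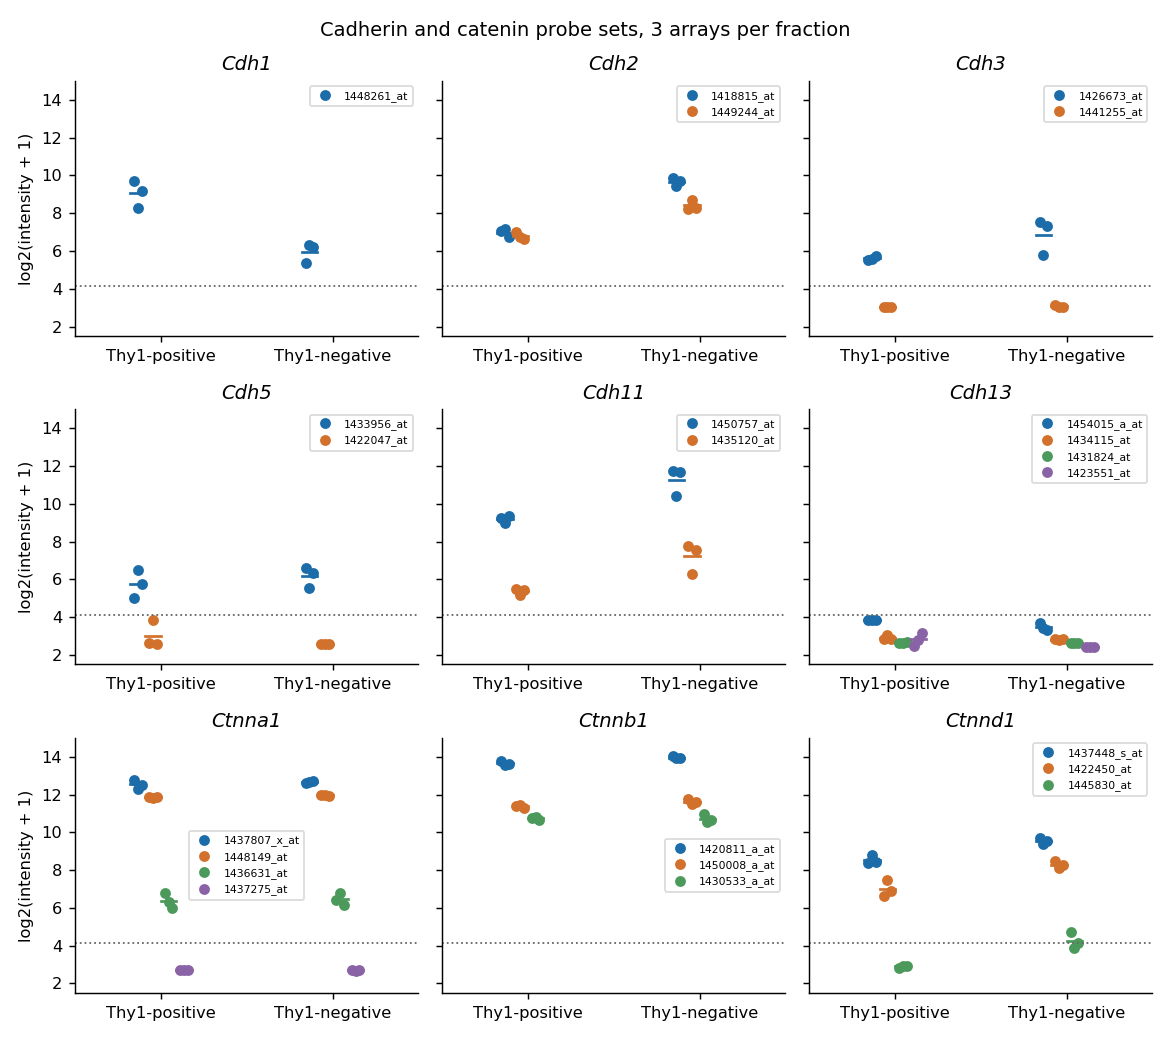
Each panel plots log2(intensity + 1) of 1 gene on the 3 Thy1-positive (left) and 3 Thy1-negative arrays (right), with a colour per probe set, a short bar at the mean of 3 arrays and a dotted line at the median of all probe sets. The Cdh1 values of Thy1-positive arrays lie above 8 and those of Thy1-negative arrays below 7, whereas Cdh2, Cdh11 and Ctnnd1 lie lower on the Thy1-positive arrays, and every Cdh13 probe set stays under the dotted line.

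Cdh1 encodes E-cadherin, the main cadherin of epithelia. Its single probe set measured 9.70, 8.30 and 9.17 on P1, P2 and P3 against 5.39, 6.34 and 6.19 on N1, N2 and N3. The lowest Thy1-positive array, P2, lay above the highest Thy1-negative array, N2. On the linear scale the intensities were 828, 315 and 576 on P1, P2 and P3 against 40.8, 80.1 and 72.1 on N1, N2 and N3. It averaged 9.06 ± 0.70 in the Thy1-positive fraction and 5.97 ± 0.51 in the Thy1-negative one (SD, n = 3 each), an 8.48-fold higher level by limma (difference 3.08, SE 0.47, 95% interval 1.85 to 4.32, adjusted p = 0.0154). Its call was lost without P3 (3.03, adjusted p = 0.0732) and without N3 (3.19, adjusted p = 0.0599). At gene level it was lost without P3 (adjusted p = 0.0551). Calls in the whole table changed in such fits too. Against 10533 probe sets called with all 6 arrays, 3177 were called without P3 and 4228 without N3. Without P1, N1, P2 or N2 the counts were 5430, 5597, 8222 and 13004. Calls lost or gained without 1 array, here and below, are to be read beside these counts.

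Markers of undifferentiated spermatogonia moved with Cdh1. Of 12 such genes 10 rose, and their mean level was 9.80, 9.70 and 9.75 on P1, P2 and P3 against 6.63, 7.53 and 7.05 on N1, N2 and N3. Among them Lhx1, a homeobox gene induced by GDNF, differed by 3.68, Ret by 3.62 and Pou5f1 by 3.61. Of 8 genes shared by germ cells 4 rose, with list means of 11.67, 11.70 and 11.68 against 9.22, 10.76 and 9.70. Of them Tdrd1, Tdrd5 and Dnd1 differed by 2.57, 2.49 and 2.37. The highest Thy1-negative array for Cdh1, N2, was also the highest of its fraction for both lists. Macrophage markers rose too, 8 of 8, with list means of 9.45, 9.92 and 9.76 against 3.35, 3.30 and 3.37 and the largest measured differences for C1qa (7.99), C1qb (7.70) and C1qc (7.44). In Thy1-negative cells C1qa and C1qc averaged 2.29 and 2.20, under the 25th percentile, so the size and order of these differences rest on background values. The part of these cells in the Cdh1 difference was not tested. In sorted but mixed fractions, fewer cells of a type and less RNA per cell cannot be told apart.

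Cdh2 encodes N-cadherin. Its brighter probe set measured 7.04, 7.15 and 6.73 on P1, P2 and P3 against 9.84, 9.46 and 9.72 on N1, N2 and N3, and was 6.49-fold lower (-2.70, SE 0.16, 95% interval -3.11 to -2.28, adjusted p = 0.00212). The other measured 6.99, 6.72 and 6.63 against 8.22, 8.71 and 8.29, and was 3.10-fold lower (-1.63, SE 0.17, adjusted p = 0.00750). Neither probe set had overlapping fractions, and the spread within a fraction was small, with SDs of 0.19 to 0.26. Both passed in each of the 6 fits that left out 1 array, as none of the other 21 member probe sets did. Their differences there ranged from -2.81 to -2.58 and from -1.74 to -1.48.

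Sertoli cell markers were lower in the same arrays. Of 11 such genes 10 fell, led by Amh (-5.61), Fshr (-5.14) and Wt1 (-4.73). The other, Rhox5, differed by 1.70 with no overlap between fractions, but did not pass (adjusted p = 0.0829). The mean level of the list was 5.39, 6.93 and 5.53 on P1, P2 and P3 against 9.91, 9.57 and 9.86 on N1, N2 and N3. Its summed intensity lay between 1614 and 7632 in Thy1-positive and between 32530 and 40056 in Thy1-negative cells. Amh and Fshr averaged below the 25th percentile in Thy1-positive cells. Sox9 and Wt1 stayed above the array median on all 6 arrays, and P2 was the highest Thy1-positive array for the list. Of 6 markers of peritubular myoid cells 4 fell, led by Myh11 (-3.19), Acta2 (-2.86) and Tagln (-2.62), with list means of 5.75, 6.09 and 5.75 against 7.62, 8.46 and 7.93. Cnn1 (-2.20, adjusted p = 0.0952) and Des, of opposite sign (0.30, adjusted p = 0.456), did not pass. The part of these cells in the Cdh2 difference was not tested.

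Cdh3 encodes P-cadherin, named for placenta, and lies directly beside Cdh1 in the RefSeq gene table (GRCm38.p6), with 0 protein-coding genes between them. Its brighter probe set measured 5.52, 5.58 and 5.73 on P1, P2 and P3 against 7.52, 5.77 and 7.33 on N1, N2 and N3. All Thy1-negative values lay above the Thy1-positive ones, but N2 by only a small margin. The difference of -1.26 (SE 0.52, 95% interval -2.63 to 0.11) did not pass (adjusted p = 0.172). Without N2 it was -1.81 and passed (adjusted p = 0.00288), and in the other 5 fits without 1 array it lay between -1.32 and -0.94 and did not. The second probe set lay between 3.03 and 3.13 on all arrays, under the array median, and differed by -0.02 (SE 0.03, adjusted p = 0.634). N2 thus decided the call of Cdh3, and the neighbours Cdh1 and Cdh3 had differences of opposite sign.

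Cdh11 encodes the mesenchymal cadherin also called OB-cadherin. Its brighter probe set measured 9.25, 9.01 and 9.37 on P1, P2 and P3 against 11.77, 10.42 and 11.68 on N1, N2 and N3, and was 4.23-fold lower (-2.08, SE 0.42, 95% interval -3.18 to -0.98, adjusted p = 0.0296). The dimmer one measured 5.50, 5.16 and 5.42 against 7.79, 6.29 and 7.58, and was 3.62-fold lower (-1.86, SE 0.45, adjusted p = 0.0467). N2 was the lowest Thy1-negative array for both, as it was for Cdh3, yet lay above every Thy1-positive array. Of the fits without 1 array, both probe sets passed in that without N2 alone, at -2.52 and -2.32. Without P1, P2, P3, N1 or N3 the brighter one differed by -2.16 to -1.84, with adjusted p of 0.0870 to 0.102.

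Of 8 markers of interstitial mesenchyme 1 fell, Tcf21 (-1.24), and the others ranged from -1.13 for Nr2f2 to 0.87 for Lum. Their mean level was 10.07, 11.52 and 10.73 on P1, P2 and P3 against 11.33, 10.88 and 11.35 on N1, N2 and N3. P2 had the highest mesenchymal mean of all 6 arrays and the lowest Cdh11 value by both probe sets. Leydig cell markers fell in 2 of 4, Cyp17a1 (-1.46) and Hsd3b1 (-1.23), while Star differed by -1.10 and did not pass. Their list means were 9.13, 8.58 and 9.28 against 10.68, 9.54 and 10.22, with N2 the lowest of the Thy1-negative arrays, as for Cdh11. The part of either cell type in the Cdh11 difference was not tested.

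Cdh5 encodes VE-cadherin, which joins endothelial cells. Its brighter probe set measured 4.99, 6.52 and 5.76 on P1, P2 and P3 against 6.60, 5.55 and 6.36 on N1, N2 and N3. The fractions overlapped, and the difference of -0.41 (SE 0.51, 95% interval -1.75 to 0.92, adjusted p = 0.653) leaves room for a change of either sign. The dimmer probe set lay under the 25th percentile on 5 arrays and reached 3.87 on P2 alone (0.46, SE 0.39, adjusted p = 0.512). P2 was thus the highest Thy1-positive array by both probe sets. Of 9 endothelial markers Tek (1.28) and Ramp2 (0.77) rose and Kdr (-1.95) fell at gene level, and Kdr lay under the 25th percentile on P1, P2 and P3, so that the size of its difference rests on background values. The list means were 4.30, 4.14 and 4.34 against 4.24, 3.93 and 4.23. Tie1 was under the 25th percentile on all 6 arrays, and Pecam1, Emcn, Cldn5 and Esam were under the array median on all 6, while Ramp2 and Egfl7 were above it on all 6.

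Cdh13 encodes T-cadherin, which is held in the membrane by a glycolipid anchor and has no tail for catenins. All 4 of its probe sets lay under the array median on every array. The brightest measured 3.85, 3.83 and 3.84 on P1, P2 and P3 against 3.67, 3.41 and 3.35 on N1, N2 and N3 (0.36, SE 0.09). It did not pass over all probe sets (adjusted p = 0.0565) and passed at gene level (adjusted p = 0.0435), where among the fits without 1 array it passed without N1 alone (0.46). The others differed by 0.02 to 0.41, with adjusted p between 0.194 and 0.500. On the linear scale the brightest reached at most 13.4 in the Thy1-positive and 11.8 in the Thy1-negative fraction, against array medians of 15.7 to 17.5.

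**Figure D2:**
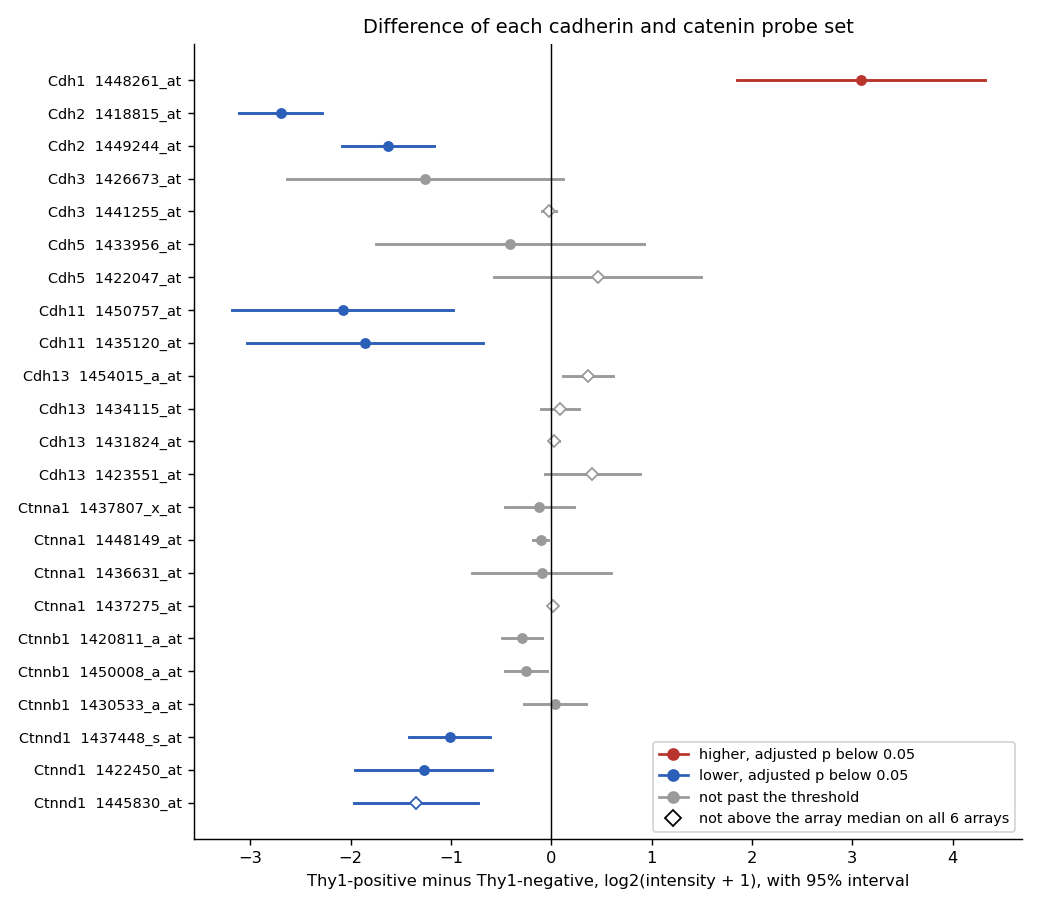
For each of the 23 probe sets the point gives the difference of means, Thy1-positive minus Thy1-negative, on the log2(intensity + 1) scale, and the line its 95% interval from limma. Filled circles are probe sets above the array median on all 6 arrays and open diamonds the others, with red for higher, blue for lower and grey for not past the threshold. Cdh1 stands alone on the right at 3.08, while Cdh2, Cdh11 and Ctnnd1 lie between -2.70 and -1.01 and the probe sets of Ctnna1 and Ctnnb1 between -0.29 and 0.03.

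Among the catenins, all 3 probe sets of Ctnnd1 fell. Those of Ctnnb1 and Ctnna1 differed by -0.29 to 0.03 and none passed by limma over all probe sets, although 3 of these 7 had an unadjusted p below 0.05. Ctnnb1 encodes beta-catenin. Its brightest probe set measured 13.80, 13.56 and 13.61 on P1, P2 and P3 against 14.02, 13.92 and 13.91 on N1, N2 and N3. The fractions did not overlap, but the difference of -0.29 (SE 0.07, 95% interval -0.49 to -0.10) missed the threshold over all probe sets (adjusted p = 0.0542) and passed at gene level (adjusted p = 0.0419). At gene level it passed without P1 (-0.36) but in none of the other 5 fits without 1 array, where it lay between -0.31 and -0.25. The other probe sets differed by -0.25 (SE 0.08, adjusted p = 0.0880) and 0.03 (SE 0.12, adjusted p = 0.899).

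Ctnna1 encodes alpha-E-catenin, the link to actin. Its brightest probe set measured 12.78, 12.32 and 12.51 on P1, P2 and P3 against 12.60, 12.66 and 12.71 on N1, N2 and N3. The fractions overlapped, and the difference of -0.12 (SE 0.13, 95% interval -0.46 to 0.22, adjusted p = 0.606) has an interval that does not reach the Ctnnd1 difference described below. A second bright probe set measured 11.88, 11.83 and 11.86 against 12.01, 11.97 and 11.92 (-0.11, SE 0.03, adjusted p = 0.0573). With arrays centred on their median the sign of both turned, to 0.00 and 0.01, so the direction of Ctnna1 depends on the scaling. The remaining pair differed by -0.10 (SE 0.26) and 0.01 (SE 0.01), and the second of these lay under the array median throughout.

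Ctnnd1 encodes p120-catenin, called delta-catenin here, the catenin of the membrane-near part of the cadherin tail. Its promoter windows are printed because all 3 of its probe sets fell while those of Ctnnb1 did not pass, and RefSeq places its starts at separate sites. Of the 9 members 2, Ctnnd1 and Ctnnb1, had windows in the RefSeq promoter table (GRCm38.p6), each running from 250 bases before to 50 after an annotated start. Capitals mark CCAAT or its reverse complement ATTGG.
Ctnnd1 upstream start, chr2:84658928-84659227, minus strand: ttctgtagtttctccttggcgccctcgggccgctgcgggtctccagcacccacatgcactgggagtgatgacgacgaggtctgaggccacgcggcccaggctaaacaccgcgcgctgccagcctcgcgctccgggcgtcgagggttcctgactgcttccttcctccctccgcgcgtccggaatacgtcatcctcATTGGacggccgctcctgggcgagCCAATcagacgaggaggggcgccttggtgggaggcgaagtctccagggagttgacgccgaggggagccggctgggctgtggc
Ctnnd1 downstream start, chr2:84650691-84650990, minus strand: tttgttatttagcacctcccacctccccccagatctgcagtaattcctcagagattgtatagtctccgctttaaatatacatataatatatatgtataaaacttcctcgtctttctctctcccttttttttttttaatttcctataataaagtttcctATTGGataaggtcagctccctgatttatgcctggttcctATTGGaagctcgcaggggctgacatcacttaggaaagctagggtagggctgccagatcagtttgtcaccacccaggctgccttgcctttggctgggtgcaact
Ctnnb1 first start, chr9:120933150-120933449, plus strand: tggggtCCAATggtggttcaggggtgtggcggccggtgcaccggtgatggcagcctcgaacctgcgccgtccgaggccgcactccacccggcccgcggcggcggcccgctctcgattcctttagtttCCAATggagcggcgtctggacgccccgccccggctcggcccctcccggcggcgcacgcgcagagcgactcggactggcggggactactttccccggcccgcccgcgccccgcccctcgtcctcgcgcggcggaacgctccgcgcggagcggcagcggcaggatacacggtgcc
Each of the 3 windows printed holds CCAAT 2 times, counting both strands. The fourth window of the members, which lies at a later start of Ctnnb1 and overlaps the printed one, holds it 0 times and is not printed. Of all 32851 windows of this length, 37.4% hold it at least once. None of the 4 holds the E-box CAGGTG (either strand), which is bound by Snail and ZEB repressors and lies in 20.2% of all windows, or the TCF/LEF letters CTTTGAT (either strand), found in 3.7%. The windows differ in base composition, with 67.7% and 42.7% G + C at the upstream and downstream starts of Ctnnd1 and 75.3% and 75.0% at the first and later starts of Ctnnb1, against a median of 52.7% over all windows.

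The brightest Ctnnd1 probe set measured 8.36, 8.80 and 8.46 on P1, P2 and P3 against 9.71, 9.39 and 9.56 on N1, N2 and N3, and was 2.02-fold lower (-1.01, SE 0.15, 95% interval -1.42 to -0.61, adjusted p = 0.0152). The second measured 6.64, 7.49 and 6.91 against 8.50, 8.10 and 8.25 (-1.27, SE 0.26, adjusted p = 0.0299). The third measured 2.84, 2.93 and 2.93 against 4.72, 3.88 and 4.15 (-1.35, SE 0.23, adjusted p = 0.0205), and it lay above the array median on N1 alone. None of the 3 overlapped between fractions, and P2 was the highest Thy1-positive array for the brighter pair. The brightest passed without N2 or P2 and missed without P1 (adjusted p = 0.0509), P3 (0.0720), N1 (0.0530) or N3 (0.0655), with differences of -1.14 to -0.92 over the 6 fits. The second also passed without N2 or P2 alone, and the third without N1 or N2 alone. At gene level Ctnnd1 passed in 4 of the 6 fits and missed without P3 (adjusted p = 0.0542) or N3 (adjusted p = 0.0513).

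**Figure D3:**
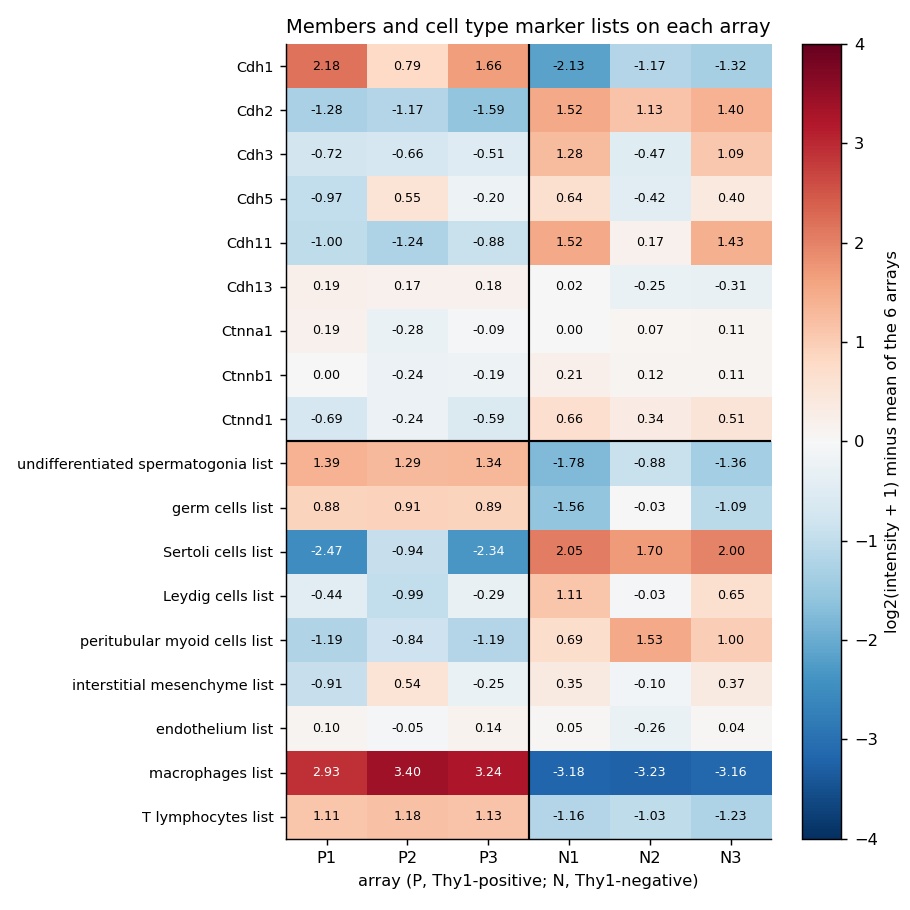
The upper rows give the brightest probe set of each cadherin and catenin and the lower rows the mean of each cell type marker list, on P1, P2 and P3 (left) and N1, N2 and N3 (right). Colour and printed values are log2(intensity + 1) minus the mean of the 6 arrays of that row. Cdh1 shares its sign on every array with the undifferentiated spermatogonia, germ cell, macrophage and T lymphocyte lists and Cdh2 with the Sertoli and peritubular myoid cell lists, as any rows parted by fraction do, and the Ctnna1, Ctnnb1 and Cdh13 rows are pale throughout.

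The genes that most resembled Cdh1 and Cdh2 in pattern were sought among the 9095 other genes with a brightest probe set above the median. Over the 6 arrays the genes nearest to Cdh1 were Atpsckmt (Pearson r = 0.9988), Afp (0.9984) and Foxred1 (0.9982), with differences of 0.30, 2.24 and 0.87. Those nearest to Cdh2 were Klhl25 (0.9995), Pfn2 (0.9988) and Dctn1 (0.9988), with differences of -2.02, -0.60 and -1.03. With 6 arrays split into fractions such values are common: r was above 0.95 for 1112 genes with Cdh1 and 1257 with Cdh2.

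Other genes of the cadherin and catenin system were read at gene level. Of 67 listed genes 63 had a probe set of their own, and of these 11 rose and 16 fell, with a median difference of -0.02 against 0.01 over all genes. Together 27 of 63 passed, where 33.0% of all genes did. Among 15 other cadherins 3 rose, 2 fell and 10 did not pass. M-cadherin (Cdh15), known from muscle, measured 7.58, 6.65 and 7.45 on P1, P2 and P3 against 4.03, 4.83 and 4.16 on N1, N2 and N3 (2.88, SE 0.35, adjusted p = 0.00713). R-cadherin (Cdh4), a close relative of N-cadherin, measured 5.84, 5.85 and 5.88 against 3.52, 3.82 and 3.63 (2.20, SE 0.08, adjusted p = 0.000426). Both passed in all 6 fits without 1 array, while Cdh20 (1.70, SE 0.44, adjusted p = 0.0435) passed without N2 alone. Cdh23, a long cadherin known from the tip links of hair cells, fell by 3.05 (SE 0.42, adjusted p = 0.00936), and Cdh10 fell by 1.87 (SE 0.11, adjusted p = 0.00153), to 2.79 in Thy1-positive cells against 4.66. The 10 that did not pass averaged between 2.24 and 3.37 in either fraction, below the array median. Of those that passed, Cdh4 had further probe sets at 1.17, which passed, and 0.01. A further one of Cdh23 differed by -0.06 and those of Cdh10 by 0.00 to 0.02. Apart from that at 1.17, these did not pass and lay under the array median on all 6 arrays.

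**Figure D4:**
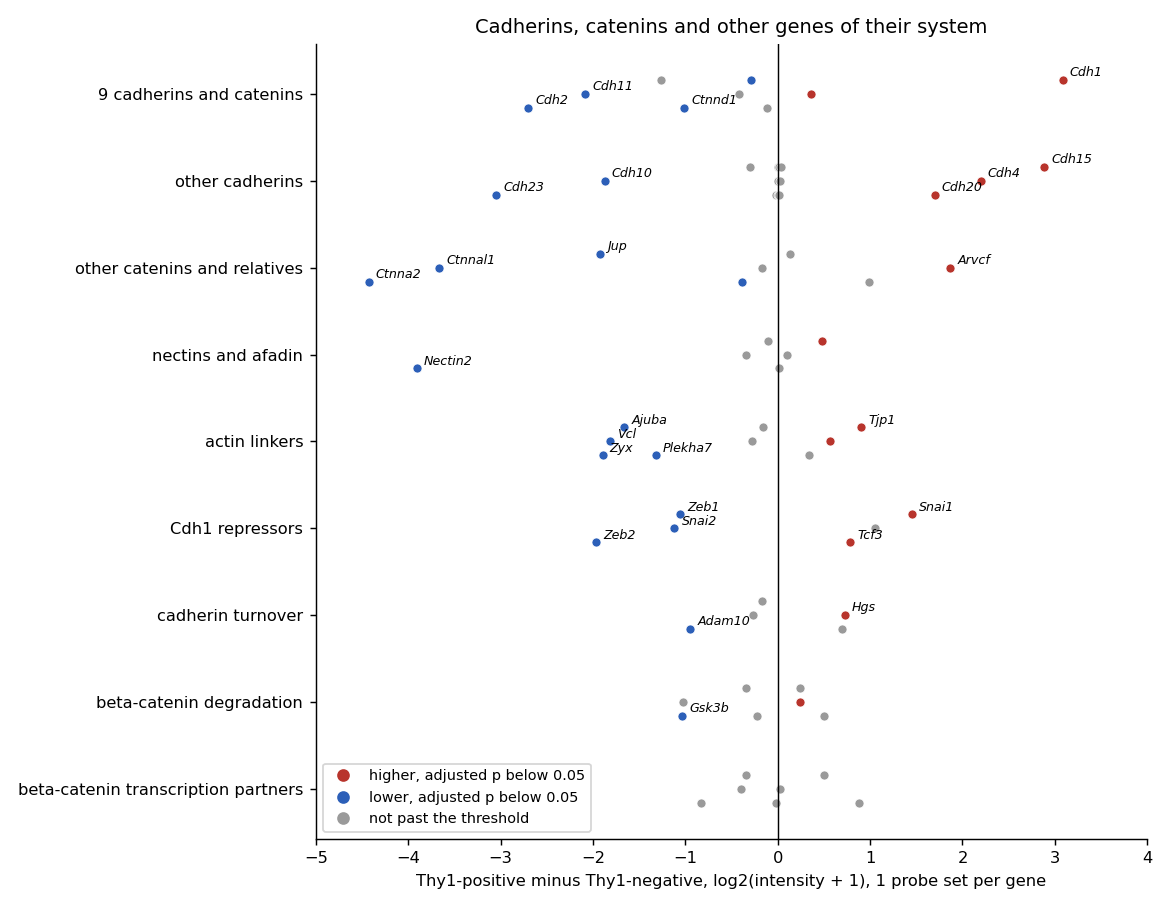
Each point is 1 gene at its brightest probe set, placed by its difference on the log2(intensity + 1) scale, Thy1-positive minus Thy1-negative, in rows by role. Red and blue mark genes past the threshold at gene level, higher and lower, and grey the rest. Cdh1, Cdh15 and Cdh4 lie farthest right, at 3.08, 2.88 and 2.20, and Ctnna2, Nectin2 and Ctnnal1 farthest left, at -4.43, -3.91 and -3.66.

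Of 8 relatives of the catenins 1 rose and 4 fell. Ctnna2, the alpha-catenin known from neurons, measured 3.50, 4.97 and 3.49 on P1, P2 and P3 against 8.83, 7.69 and 8.73 on N1, N2 and N3 (-4.43, SE 0.57, adjusted p = 0.00784). Ctnnal1, an alpha-catenin-like protein, measured 5.86, 7.51 and 6.35 against 10.45, 9.82 and 10.43 (-3.66, SE 0.49, adjusted p = 0.00869). Jup, plakoglobin, which takes the place of beta-catenin in desmosomes, was lower (-1.93, SE 0.42, adjusted p = 0.0276), and Arvcf, a relative of delta-catenin, was higher (1.87, SE 0.42, adjusted p = 0.0301). P2 was the highest Thy1-positive and N2 the lowest Thy1-negative array for Ctnna2, Ctnnal1 and Jup, as for the Sertoli cell list. P2 and N2 also lay nearest the other fraction on the first principal component of all probe sets. Jup passed without N2 or P2 alone and Arvcf without N2 alone.

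Nectins are immunoglobulin-like adhesion proteins that afadin ties to actin beside the cadherins. Of 6 genes of this system Nectin2 fell (-3.91, SE 0.58, adjusted p = 0.0109), to 6.03, 7.97 and 6.26 on P1, P2 and P3 against 10.79, 10.39 and 10.80 on N1, N2 and N3, and its second probe set differed by -2.78. Afdn, afadin, rose by 0.48 (SE 0.07, adjusted p = 0.0102). Nectin2 missed without P3 or N3 (adjusted p = 0.0512 and 0.0511) and Afdn without P3 (adjusted p = 0.0508). Nectin3, the nectin known from spermatids, differed by -0.34 (adjusted p = 0.0822).

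Of 9 linkers to actin 2 rose and 4 fell. Zyx, zyxin, fell by 1.90 (SE 0.27, adjusted p = 0.0102). Vcl, vinculin, which binds stretched alpha-catenin, measured 10.15, 10.51 and 10.30 on P1, P2 and P3 against 12.15, 12.05 and 12.22 on N1, N2 and N3 (-1.82, SE 0.11, adjusted p = 0.00145). Ajuba fell by 1.66 (SE 0.18, adjusted p = 0.00538). Tjp1, the junction scaffold ZO-1, rose by 0.90 (SE 0.07, adjusted p = 0.00298) and Lima1 by 0.56 (SE 0.14, adjusted p = 0.0392). Vcl, Ajuba and Tjp1 passed in all 6 fits without 1 array, Zyx in all but that without P3 (adjusted p = 0.0508), and Lima1 in that without N1 alone. The myoid markers, of which 4 of 6 fell, and the Sertoli cell markers, of which 10 of 11 fell, moved with the lower genes. P2 was the highest Thy1-positive array for Vcl, Zyx and Ajuba as for both lists, and the part of these cells was not tested.

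Of 6 transcription factors that repress Cdh1, 3 were lower and 2 higher. Zeb2 (-1.96, SE 0.41, adjusted p = 0.0255), Snai2 (-1.12, SE 0.26, adjusted p = 0.0336) and Zeb1 (-1.06, SE 0.21, adjusted p = 0.0224) fell, whereas Snai1 (1.45, SE 0.35, adjusted p = 0.0366) and Tcf3, which encodes the E2A proteins (0.78, SE 0.19, adjusted p = 0.0352), rose. A further probe set of Tcf3 (0.19) and 2 of Zeb2 (-1.28 and -0.44), above the array median on all 6 arrays, did not pass. The same held for 2 dimmer probe sets of Zeb1 (-0.30 and -0.55). Twist1 differed by 1.05 and did not pass (adjusted p = 0.101). Snai1 measured 5.10, 6.19 and 5.21 on P1, P2 and P3 against 4.30, 3.77 and 4.08 on N1, N2 and N3. Zeb2 measured 7.03, 7.01 and 7.09 against 9.06, 8.21 and 9.75. None of the 5 passed in all 6 fits without 1 array: Snai1 passed without P2 alone, Snai2 without N2 alone, Zeb1 without N2 or P2, Zeb2 without N2 or N3, and Tcf3 without N2, P1 or P2.

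Genes that control cadherin and beta-catenin turnover had differences between -1.04 and 0.72 at their brightest probe sets. Some that did not pass there had other probe sets that passed over all probe sets. These differed by 1.18 for Numb, -0.91 for Rab11a and -0.22 for Cbll1, and by 0.88, 0.72 and -1.07 for Apc. At the brightest probe set Numb differed by -0.17 and Cbll1 by 0.70, so the directions of Numb, Cbll1 and Apc rest on the probe set. Of 5 genes of cadherin turnover, Adam10, the protease that sheds E- and N-cadherin, fell by 0.95 (SE 0.09, adjusted p = 0.00470) and passed in all 6 fits without 1 array, and Hgs, an endosomal sorting protein, rose by 0.72 (SE 0.17, adjusted p = 0.0320) and passed without N2 alone. Of 7 genes of the beta-catenin destruction machinery, the kinase gene Gsk3b fell by 1.04 (SE 0.19, adjusted p = 0.0176), and missed without P2 or P3 (adjusted p = 0.0524 and 0.0726). Of its 5 other probe sets 1 fell, with a difference of -3.09, and the others differed by -0.95 to 0.33 and did not pass, that at 0.33 being about as bright as the one used. The kinase gene Csnk1a1 rose by 0.24 (SE 0.05, adjusted p = 0.0239), but 3 other probe sets of it fell, with differences of -0.89, -1.30 and -2.27, and the mean of all its probe sets differed by -0.82, so its direction rests on the probe set. The Wnt target Axin2 differed by -0.35 (SE 0.34, adjusted p = 0.522). Of 7 partners of beta-catenin in transcription 0 passed by limma and 1 had an unadjusted p below 0.05, Tcf7l2 at -0.84 (adjusted p = 0.0620).

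T lymphocyte markers, a further cell type that carries Thy1, rose in 3 of 5, led by Cd3g (4.28), Lat (3.11) and Cd3d (2.66), the last of which lay under the 25th percentile on N1, N2 and N3. Their list means were 5.29, 5.36 and 5.31 on P1, P2 and P3 against 3.02, 3.15 and 2.95 on N1, N2 and N3. Their part in the cadherin and catenin differences was not tested.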

How the data were processed

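RNA of 6 mouse testis samples, 3 Thy1-positive and 3 Thy1-negative, was measured on 1 Affymetrix array each. The authors deposited linear intensity values, 1 for every probe set on each array. Per the submitters' processing notes the tool was GCRMA, with no version, while the sample descriptions in the labels name Affymetrix software and scaling to a common target; the sources used here do not settle which was used.

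After leaving out 64 control probe sets, 45037 were tested; 0 pairs of arrays were identical. The platform annotation gave 1 gene to 34945 of them, several to 932 and none to 9160. Checking symbols against RefSeq (GRCm38.p6) changed 0, and 204 found no match. Intensities were taken as log2(intensity + 1) without filter or further normalization. The test between fractions was that of limma 3.58.1 in R 4.3.3 (lmFit, eBayes), 2-sided, with fraction as the term and Benjamini-Hochberg adjustment over all probe sets or, at gene level, over 18193 genes at their brightest probe set. SD is between arrays and SE is that of limma. The fit was also run on simulated arrays with known changes. That simulation had independent noise and few changed probe sets, so it does not cover shifts shared by many probe sets of an array, such as N2. The p-values set each difference against the spread between these preparations, with variances moderated by limma over all probe sets or genes.

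The members, lists and tests were chosen with earlier results of these data known. All members are named, with up to 3 called genes per direction in each role group, up to 3 per marker list and the 3 genes most like the member with the largest rise or fall. Twist1, Nectin3, Axin2, Tcf7l2 and the marker genes named beyond 3 per list were added after their values were seen. The role groups were other cadherins, catenin relatives, nectins and afadin, actin linkers, Cdh1 repressors, cadherin turnover, and beta-catenin degradation and transcription partners; Cdh12, Cdh24 and Tcf7 were among the genes not analysed here. The marker lists were undifferentiated spermatogonia, germ cells, Sertoli, Leydig and peritubular myoid cells, interstitial mesenchyme, endothelium, macrophages and T lymphocytes, of which Insl3 and Lhcgr were not analysed here.

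Alternatives were quantile normalization, centring on the median or on housekeeping genes, dim probe sets filtered out or floored at the 25th percentile, a pseudocount of 16, a replicate block, an intensity trend, weighted arrays, each array left out, probe sets with the endings _x_at and _s_at left out, and gene means over probe sets. Fits without N2 and P2 and without N3 and P3 were added after seeing the data. Whether equal replicate numbers mark paired arrays is not settled. Deviations of such arrays from the fraction means correlated at -0.16, -0.17 and -0.04, but arrays of unequal number were not compared.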

Additional observations from a re-analysis of the deposited data

How the results depend on the processing

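Directions of the called members held in every setting tried, and of 20 sign changes among 1049 recomputed values 19 concerned probe sets or genes that had not passed. The other was Csnk1a1, at -0.82 with the mean of its probe sets. With arrays centred on their median the signs turned to 0.0995 for the dim probe set of Cdh3 and 0.0259, 0.00364 and 0.0149 for 3 of Ctnna1. With housekeeping centring 1 probe set each of Cdh13, Ctnna1 and Ctnnb1 turned, to -0.0519, -0.0608 and -0.0405. A different probe set of Ctnna1, at -0.10 in the main fit, turned to 0.0210 with quantile normalization and 0.105 without N2 and P2. The same Ctnnb1 probe set, at 0.03 in the main fit, turned to -0.0173 and -0.0919 in these fits and to -0.00779 with array weights. With the mean of its probe sets Cdh5 was at 0.0231. In single fits without 1 array the dim Cdh3 probe set lay between -0.0413 and 0.00388. There the Ctnna1 probe set at -0.10 in the main fit lay between -0.300 and 0.0736. The Ctnnb1 one at 0.03 lay between -0.0553 and 0.146.

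Counts moved more. Against 1 higher and 7 lower member probe sets, there were 2 higher with quantile normalization, with a floor at the 25th percentile or with an intensity trend, 5 with median centring, and 4 higher and 11 lower with array weights. Against 2 higher and 4 lower member genes, 1 was higher with housekeeping centring, above the median alone or without N2 and P2, and 7 were lower with array weights. Against 11 higher and 16 lower genes of the wider system, 27 were higher with median centring. With array weights 22 were higher and 28 lower. Calls in the whole table rose in these settings too. Against 10533 of 45037 probe sets and 5996 of 18193 genes in the main fit, median centring called 31775 and 13095. Array weights called 23941 probe sets and 12268 genes. The larger counts with these settings are to be read beside those of the whole table. Without N3 and P3 all 6 member and wider system counts were 0 by limma, which then called 363 probe sets in the whole table. Over the fits without 1 array they ranged from 0 to 2 and 2 to 9 for member probe sets, 0 to 2 and 1 to 4 for member genes, and 3 to 11 and 7 to 20 for the wider system. In the same fits the calls in the whole table ranged from 3177 to 13004 probe sets and from 2513 to 7281 genes.

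With the replicate number as a block, 0 member probe sets were higher and 0 lower, 0 member genes higher and 1 lower, and 2 and 5 genes of the wider system. That block left 1231 probe sets called in the whole table against 10533 without it. The cause of these changes was not tested. Probe sets under the array median, all 4 of Cdh13 among them, are limited by their closeness to background.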
